A study of Mus musculus with 15 samples.

Results

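Il33 and 9 further genes of late oligodendrocytes (Abca8a, Ptgds, Apod, Klk6, Hapln2, Anln, S100b, Car2 and Trf) were followed through the cell classes of the mouse prefrontal cortex (PFC). These 10 genes, of 26145 genes listed, were chosen by symbol with earlier results of the same libraries known, for their levels in oligodendrocytes at 2 ages. Their levels by class and their differences between ages in oligodendrocytes are therefore given as a description. The study profiled single cells of the PFC of male C57BL/6N mice on a droplet platform in 15 libraries. P60 mice (8 to 10 weeks in the labels) self-administered saline or cocaine through an intravenous catheter (intravenous self-administration, IVSA), and tissue was taken when maintenance ended or after 48 h or 15 days of withdrawal, with 2 libraries for each of the 6 groups and 2 pooled mice in each library. In the paper the catheters were implanted at P60, so these mice were older when tissue was taken. The other 3 libraries came from P21 mice (3 weeks in the labels) that had no self-administration, 4 mice by the methods, whose division among the libraries is not given in the sources used here. With 2 mice pooled per replicate, as the methods state, 4 mice do not make 3 separate pools, so P21 libraries may share mice. The saline P60 mice, which stand here for the adult state, had surgery, food restriction and saline self-administration, so age, this handling and the batch of libraries cannot be told apart. In the labels the tissue is given in places as the nucleus accumbens, while titles and methods give the PFC.

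Oligodendrocytes wrap axons in myelin. They arise from oligodendrocyte precursors (OPC) through newly formed oligodendrocytes (NF Oligo), and they go on changing their transcripts after myelin has formed. Il33 encodes a nuclear cytokine of the interleukin-1 family that is released from damaged cells and acts through the receptor encoded by Il1rl1. Ptgds makes prostaglandin D2 and carries lipids, Apod is a lipid-binding apolipoprotein, and Abca8a is a membrane transporter of the ABC family. Trf encodes the iron carrier transferrin, Car2 a carbonic anhydrase and S100b a calcium-binding protein. Klk6 is a secreted serine protease, Hapln2 a link protein of the matrix at nodes of Ranvier, and Anln encodes anillin, which binds septins and actin.

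In the annotation of NCBIM37 (mm9), the build of the counts, each of the 10 is a protein-coding gene. Il33 (chr19:29999604-30035194) lies on the plus strand, as do Klk6 (chr7:51079869-51087397), S100b (chr10:75716598-75723904) and Car2 (chr3:14886426-14900769). Abca8a (chr11:109886948-109957292), Ptgds (chr2:25322229-25325566), Apod (chr16:31296278-31314894), Hapln2 (chr3:87825672-87831505), Anln (chr9:22135658-22193650) and Trf (chr9:103106331-103132774) lie on the minus strand. S100b overlaps Dip2a on the opposite strand without shared exon bases. Trf shares exon bases with a second gene model on its strand, but that model (Gm20425) had 0 UMIs in Oligo cells of all libraries, against 62186 for Trf. The end of Abca8a was 79.8% identical to a stretch of Abca8b over 397 bases. Stretches of the ends of Apod and Trf matched transcripts of other counted genes, at any place in those transcripts and not only at their ends. There were 102 such genes for Apod, over a median of 49.5 bases at a median identity of 95.7%. For Trf there were 278, the second gene model included, over a median of 146.5 bases at a median identity of 90.9%. Whether reads were divided among such genes was not tested.

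RefSeq promoters (GRCm38.p6, a later build than that of the counts, 250 bases before to 50 after a start) were found for 8 of the 10 genes, with 10 starts. The promoters of Il33, Ptgds and Abca8a are shown because these 3 genes had the lowest levels at P21 relative to P60. Short motifs were searched on both strands, and capitals mark each match. The core of a TATA box, TATAAA, was found in 13.6% of all 32851 promoters, and the E-box CACGTG in 7.15%. The SOX motif ACAAAG was found in 18.7% of them, and its variant ACAATG in 12.6%. The MYRF motif CTGGCAC was found in 5.01% of them, and its variant CTGGTAC in 2.24%.
Il33, first start, chr19:29924863-29925162, plus strand: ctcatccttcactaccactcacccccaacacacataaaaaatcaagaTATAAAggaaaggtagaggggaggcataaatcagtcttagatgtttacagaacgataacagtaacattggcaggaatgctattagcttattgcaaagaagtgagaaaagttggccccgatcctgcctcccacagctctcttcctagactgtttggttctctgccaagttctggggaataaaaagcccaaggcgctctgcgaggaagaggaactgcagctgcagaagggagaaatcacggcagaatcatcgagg
Il33, second start, chr19:29945540-29945839, plus strand: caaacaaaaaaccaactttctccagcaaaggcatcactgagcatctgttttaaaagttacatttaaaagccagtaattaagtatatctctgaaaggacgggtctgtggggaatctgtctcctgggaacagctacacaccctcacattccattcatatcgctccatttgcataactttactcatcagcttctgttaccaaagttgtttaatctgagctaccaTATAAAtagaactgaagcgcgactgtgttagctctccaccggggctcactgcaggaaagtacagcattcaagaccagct
Ptgds, chr2:25469700-25469999, minus strand: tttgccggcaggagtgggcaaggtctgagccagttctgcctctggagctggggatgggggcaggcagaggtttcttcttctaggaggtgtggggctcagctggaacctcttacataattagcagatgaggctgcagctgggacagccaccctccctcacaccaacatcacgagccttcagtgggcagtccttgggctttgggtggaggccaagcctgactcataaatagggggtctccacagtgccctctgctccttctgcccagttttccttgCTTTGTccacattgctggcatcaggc
Abca8a, chr11:110095888-110096187, minus strand: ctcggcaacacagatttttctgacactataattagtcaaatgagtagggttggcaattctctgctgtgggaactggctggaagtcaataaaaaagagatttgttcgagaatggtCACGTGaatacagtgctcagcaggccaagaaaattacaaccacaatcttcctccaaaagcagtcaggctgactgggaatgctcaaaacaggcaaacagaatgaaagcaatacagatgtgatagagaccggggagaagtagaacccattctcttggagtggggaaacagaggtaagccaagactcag
Both promoters of Il33 held TATAAA, close before the start in the second but far upstream of it in the first. Ptgds held ACAAAG on the opposite strand, printed as CTTTGT, and Abca8a held CACGTG. These matches describe letters and are not sites shown to be used.

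Depth differed between libraries. The retained cells of a library held 27704573 to 42892922 UMIs (unique molecules counted) in the 4 libraries at 15 days, 8375172 to 20336658 in the 8 earlier P60 libraries and 19765973 to 40972771 at P21. Mature oligodendrocytes (class Oligo) numbered 534 at P21 (81 to 350 per library), 782 in the saline libraries (41 to 212) and 796 in the cocaine libraries, and were 6.58% of saline P60 cells. Libraries shared at most 27 cell barcodes. The 5 Oligo markers summed to 13925 to 17938 CPM (UMIs of a gene divided by all UMIs of the cells and scaled to 1e6) in P21 Oligo cells and 13419 to 16083 CPM in saline P60 Oligo cells, so the class carried its markers at both ages. The markers of NF Oligo summed to 212 to 253 CPM and 88.2 to 165 CPM in the same cells. The authors gave each P21 cell the name of the P60 cluster it correlated with. The class and the cluster name agreed for 512 of 534 P21 Oligo cells and 492 of 528 NF Oligo cells, but for 306 of 405 astrocytes (Astro), 182 of 329 microglia and 22 of 51 OPC.

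At P60, 9 of the 10 genes had their highest mean level in mature oligodendrocytes, and S100b did not. Oligo cells held 98.4% of all saline P60 UMIs of Klk6, 89.5% of Ptgds, 86.6% of Anln, 84.9% of Trf, 84.2% of Hapln2, 82.2% of Il33, 78.3% of Apod and 74.2% of Car2. For Abca8a the share was 45.8%, with endothelial cells (Endo) second in level. For S100b it was 6.45%, against 45.6% in the far more numerous excitatory neurons. The 10 genes together made up 3.38% to 4.8% of the UMIs of saline Oligo cells, 3.13% to 5.25% in the cocaine libraries and 0.945% to 1.42% at P21.

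Il33 was followed at a distance by astrocytes. Its mean level in saline P60 libraries was 1234 ± 364 CPM in Oligo (SD, n = 6), 166 ± 79.7 in Astro (n = 5) and 27.5 ± 28.7 in NF Oligo (n = 5), followed by OPC at 9.08, Endo at 5.59, inhibitory neurons at 3.54, microglia at 3.11 and excitatory neurons at 1.81 CPM. The libraries of Oligo and Astro did not overlap, nor did those of Astro and NF Oligo, while the lower classes overlapped with their neighbours. With each cell thinned to 2000 UMIs, 73.0% ± 5.8 of saline Oligo cells (SD, n = 6) held an Il33 UMI, against 27.7% of Astro and 0.516% of excitatory neurons. The unthinned share in Oligo was 79.2%. The Il33 level in Astro was 13.4% of that in Oligo. The other members ranged there from 0.209% (Klk6) to 275% (S100b) of their Oligo levels. Between these, Apod stood at 0.277%, Ptgds at 0.375%, Trf at 0.376%, Anln at 2.41% and Car2 at 20.8%. Whether RNA of Oligo cells took part in the Il33 of Astro was not tested.

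The second class differed from gene to gene. Ptgds followed in NF Oligo (1865 CPM), OPC (255) and Endo (187), Apod in Endo (213 CPM) and Car2 in Astro (1282 CPM) and Endo (129). Trf was high in microglia too (1441 CPM), ahead of NF Oligo (288), and Anln stood at 14.4 CPM in OPC. Abca8a reached 11.6 ± 0.43 CPM in Endo (SD, n = 6). S100b was the exception to the pattern, with means of 1861 CPM in NF Oligo, 1158 in OPC, 752 in Astro and 274 in Oligo, and 51.4 in excitatory neurons. The libraries of NF Oligo, OPC and Astro overlapped for S100b. In excitatory neurons Ptgds, Apod, Car2, Trf and Il33 stood at 0.0914%, 0.0823%, 0.0994%, 0.0685% and 0.147% of their Oligo levels, and S100b at 18.8%.

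**Figure D1:**
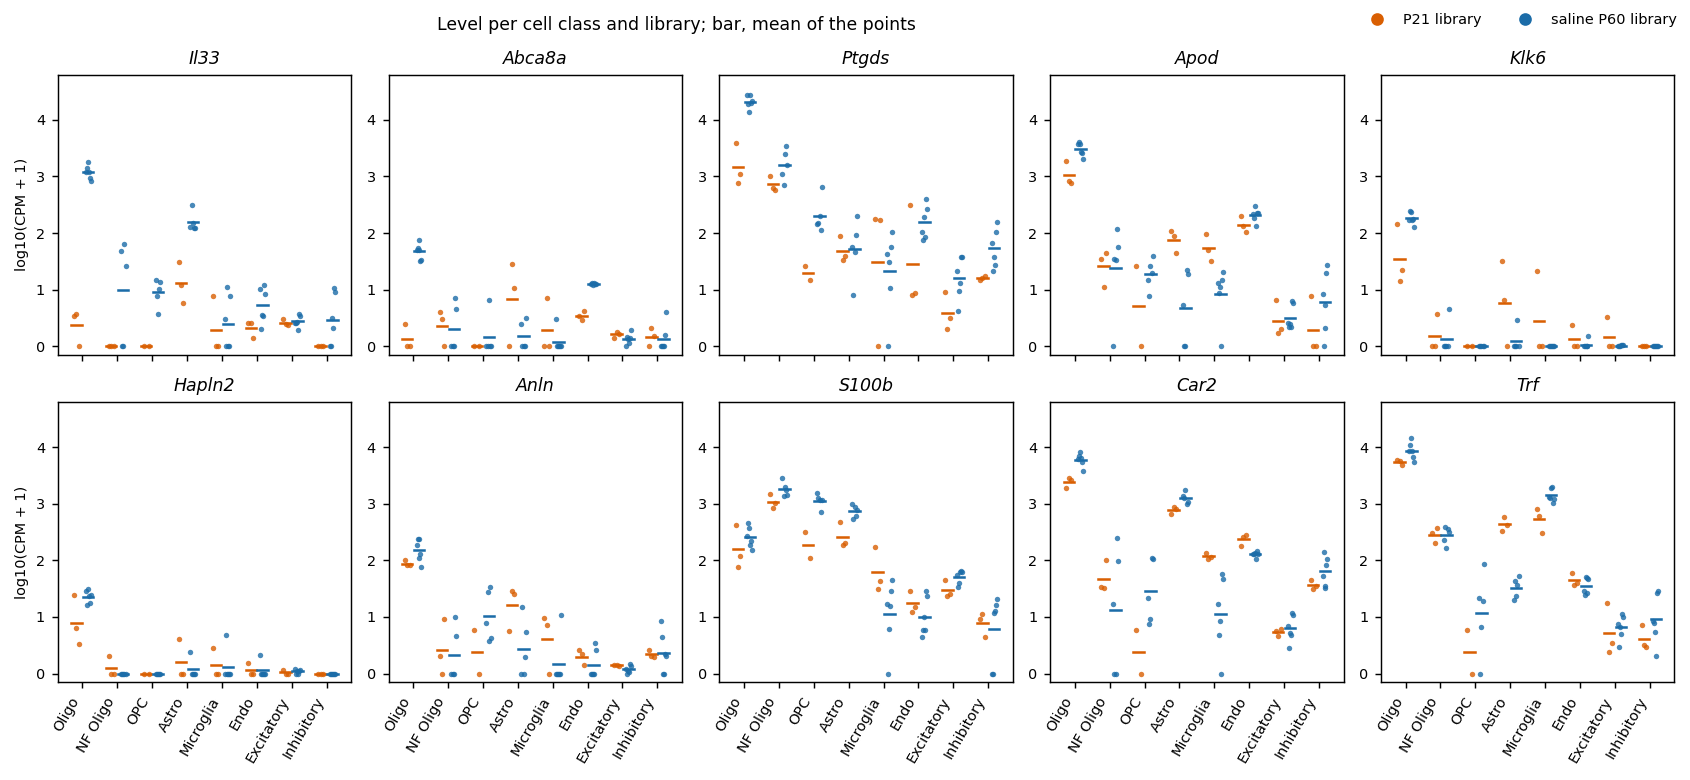
Level of each of the 10 genes as log10(CPM + 1), a log scale, in 8 cell classes. Each point is a library with at least 10 cells of the class, orange for P21 and blue for saline P60, and each bar is the mean of the points. Il33 in Oligo lies between 822 and 1833 CPM in the saline libraries and at or below 2.68 CPM at P21.

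Il33 was nearly absent from Oligo cells at P21. Its level was 2.45, 2.68 and 0 CPM in the 3 P21 libraries, a total of 6 UMIs in 534 cells, and ranged from 822 to 1833 CPM (median 1200) in the saline P60 libraries, with 3251 UMIs in 782 cells. The 2 ages did not overlap, with means of 1.71 ± 1.48 (SD, n = 3) and 1234 ± 364 CPM (SD, n = 6), a ratio of 722. On the log2 scale of the edgeR fit, which compares UMIs summed over the Oligo cells of each library, P60 exceeded P21 by 9.03 ± 0.47 (SE). After thinning to 2000 UMIs, 0.190% of P21 Oligo cells held an Il33 UMI, and 0.888% did before thinning. At that age the class with the highest Il33 mean was Astro, at 15.2 ± 13 CPM (SD, n = 3), and Oligo overlapped with microglia and excitatory neurons.

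Abca8a showed the same order at a lower level. It was at 1.47, 0 and 0 CPM at P21 and at 30.6 to 75.3 CPM (median 49.7) in the saline libraries. With 3 UMIs at P21 against 125, the pooled ratio was 41.2 (95% counting interval 13.8 to 202), and the fitted log2 difference was 5.20 ± 0.57 (SE). No P21 library reached a saline library for either gene.

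Ptgds, Apod and Car2 were already present at P21 and were higher at P60. Ptgds was at 3856, 753 and 1085 CPM in the P21 libraries and at 13653 to 27680 CPM (median 20720) in the saline libraries, an 11.3-fold ratio of means and a log2 difference of 3.43 ± 0.60 (SE). Apod was at 1848, 826 and 774 CPM and at 2037 to 3986 CPM (median 3225), with a ratio of 2.74 and a log2 difference of 1.38 ± 0.33. Car2 was at 1895, 2805 and 2621 CPM and at 3823 to 8317 CPM (median 6260), with a ratio of 2.52 and a log2 difference of 1.26 ± 0.23. In each of these 3 genes every P21 library lay below every saline library. The thinned share of Oligo cells with a UMI went from 49.4% to 91.7% for Ptgds, from 68.7% to 95.1% for Apod and from 92.3% to 97.8% for Car2.

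The remaining 5 genes overlapped between ages. Klk6 was at 141, 13.4 and 20.9 CPM at P21 and at 128 to 248 CPM (median 174) in the saline libraries, with P21 replicate 1 inside the adult range and the other two far below it. Hapln2 had the same split, with 23.0, 5.36 and 2.32 CPM against 15.0 to 30.1 (median 22.5). S100b was at 427, 75.1 and 118 CPM at P21 and at 153 to 450 CPM (median 243) in the saline libraries, again with P21 replicate 1 apart from the others. Anln was at 98.8, 80.4 and 81.3 CPM against 75.5 to 241 (median 157), and Trf at 5927, 5580 and 4751 CPM against 5415 to 14406 (median 8545). The log2 differences were 1.26 ± 0.59 (SE) for Klk6, 0.77 ± 0.34 for Anln, 0.67 ± 0.28 for Trf and 0.18 ± 0.57 for S100b, and Hapln2 did not pass the filter on low counts. Without P21 replicate 1 the difference of Klk6 was 3.31, now past the threshold, and that of Hapln2 2.45.

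A gene was called where the Benjamini-Hochberg adjusted p of edgeR's quasi-likelihood test over all tested genes was below 0.05 and the change exceeded 1.5-fold. In Oligo, 5 of the 9 genes tested were called, all higher at P60, beside 16.5% of all 5191 genes. Nothing is read from that count, because the genes were selected on this contrast. As a description, Apod, at a log2 difference of 1.38, lay inside the threshold. Trf, at 0.67, was past 1.5-fold but stayed outside the threshold by its adjusted p. Apod moved outside it without P21 replicate 2 (1.24) or P21 replicate 3 (1.15) and with these libraries summed (1.22). Trf and Anln moved inside it without saline 15-day replicate 2 (0.78 and 0.93) and with no filter on low counts (0.68 and 0.79).

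**Figure D2:**
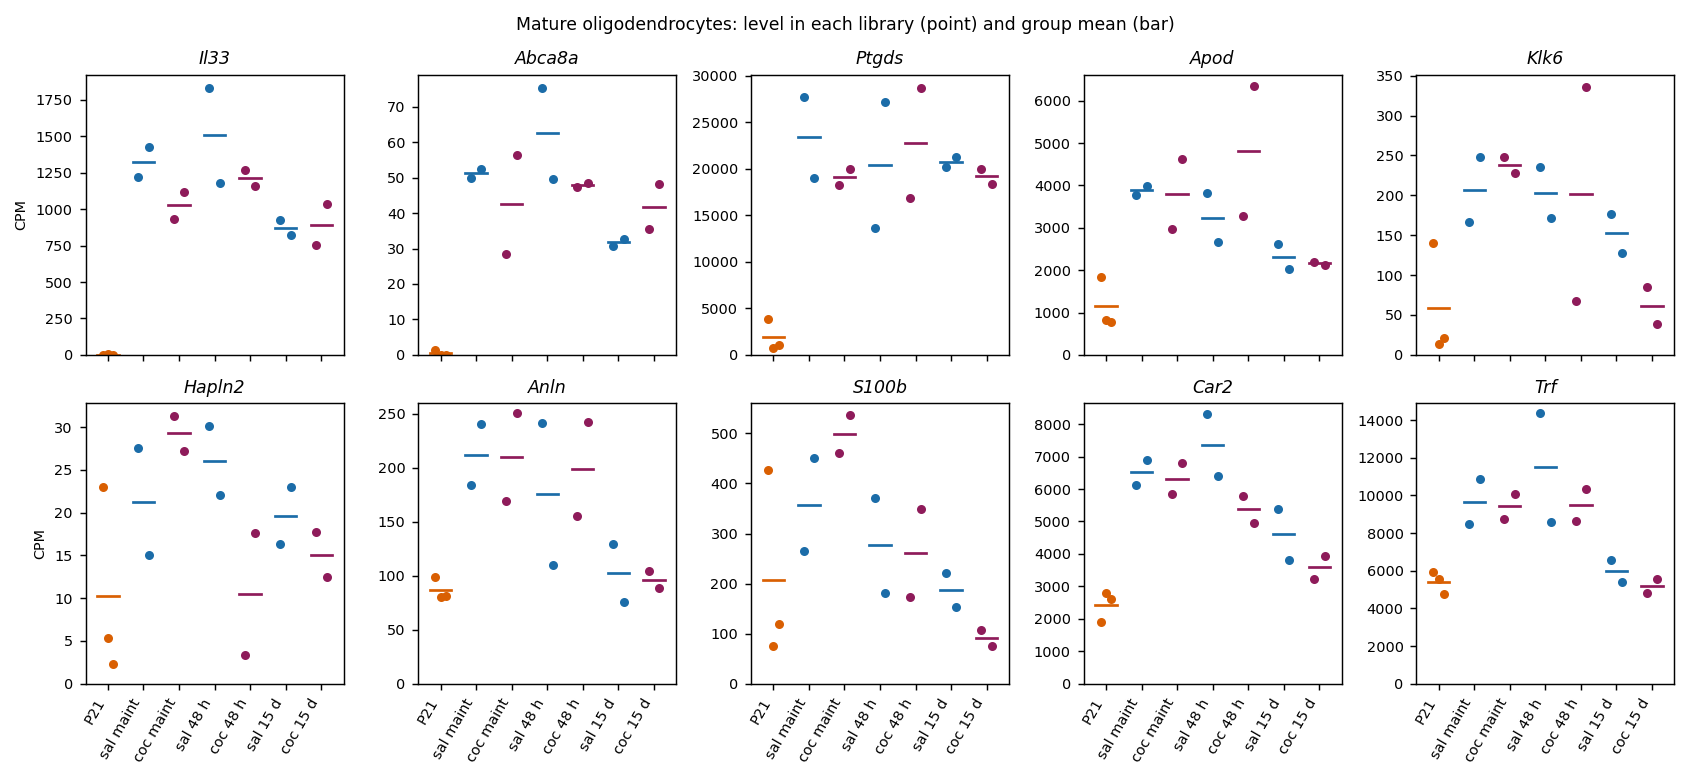
Level of each gene in mature oligodendrocytes in CPM on a linear axis, for P21 (orange), saline (blue) and cocaine (purple) at maintenance, 48 h and 15 days. Each point is a library and each bar a group mean. Il33, Abca8a, Ptgds, Apod and Car2 are lower in every P21 library than in every saline library.

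Newly formed oligodendrocytes, the stage before, held little Il33 at either age. Il33 had no UMI in 528 P21 cells of this class and 31 UMIs in 156 cells of the saline libraries, at least 22.2-fold higher by a floor of 3 UMIs over the P21 group. Of these UMIs, 21 came from saline 15-day replicate 1, without which the bound was 11.7-fold. The saline libraries held 64.2, 25.5, 48.0, 0 and 0 CPM, so those at 0 overlapped with P21. Ptgds averaged 741 CPM at P21 and 1865 at P60 (log2 difference 1.34 ± 0.53, SE, adjusted p = 0.222 by edgeR), and S100b 1122 and 1861 CPM (0.70 ± 0.23, adjusted p = 0.078). Trf averaged 293 and 288 CPM. Of the 10 genes, 5 passed the filter and 0 of these were called, beside 5.98% of 4751 genes, with 951 genes at an unadjusted p below 0.05, and DESeq2 called 0 of the 5 as well. S100b passed without saline 15-day replicate 2 (0.79) and without P21 replicate 1 (0.98).

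The genes were chosen for oligodendrocytes, and in the other classes their differences between ages went both ways. Il33 was higher at P60 in Astro, at 29.7, 10.9 and 4.9 CPM in the P21 libraries and 121 to 307 CPM in the 5 saline libraries (log2 difference 3.04 ± 0.50, SE, adjusted p = 0.0062 by edgeR). It passed the threshold in each of the 11 alternatives, with differences of 2.22 to 4.41, the lowest of which came from the P21 cells whose class and cluster name agreed (adjusted p = 0.045). The summed Oligo markers moved the other way in Astro, from 555 to 930 CPM at P21 to 21.4 to 78.6 CPM in the saline libraries. Oligo cells themselves held Il33 at 1.71 CPM at P21 and 1234 CPM in the saline libraries. The direction of the markers therefore cannot tell whether Oligo RNA took part in the rise, which was not tested. Il33 was also higher in Endo, from 1.19 to 5.59 CPM (2.13 ± 0.67, adjusted p = 0.041), with 11 and 52 UMIs and libraries that overlapped between ages. Il33 in Endo stood at 0.453% of its Oligo level. The other members ranged there from 0.0471% (Klk6) to 23.9% (Abca8a), with Trf at 0.402%, Ptgds at 0.869% and Apod at 6.76%. The part of free RNA in the Il33 of Endo was not tested. In inhibitory neurons Il33 went from no UMI to 26 UMIs, at least 12.5-fold higher by the floor of 3 UMIs. Of these UMIs, 16 came from saline 15-day replicate 1, without which the bound was 7.63-fold, and some saline libraries were at 0 and overlapped with P21. At 0.287% of its Oligo level it lay beside Ptgds (0.320%) and Apod (0.310%) there.

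S100b rose in precursors and astrocytes. It averaged 212 CPM at P21 and 1158 CPM at P60 in OPC (log2 difference 2.28 ± 0.42, adjusted p = 0.0047 by edgeR, 2 P21 and 5 saline libraries) and 284 and 752 CPM in Astro (1.52 ± 0.36, adjusted p = 0.032). With every library counted, those with under 10 OPC included, S100b averaged 197 CPM at P21 and 1118 CPM in the saline libraries over all OPC, and 574 and 1125 CPM over the agreeing cells, 22 of them at P21. This smaller difference was not tested. The markers of excitatory neurons summed to 2464 to 2510 CPM in P21 OPC and 174 to 1435 CPM in saline OPC, and their part in the difference was not tested. With the agreeing P21 cells, the difference of S100b in Astro was 0.83 and did not pass, and it was also lost without any of saline maintenance replicate 1 (1.31), saline 48 h replicate 2 (1.47), P21 replicate 2 (1.28) and P21 replicate 3 (1.34). In excitatory neurons S100b rose from 30.6 to 51.4 CPM (0.77 ± 0.26, adjusted p = 0.041), with libraries that overlapped between ages. Abca8a rose in Endo from 2.51 to 11.6 CPM (2.1 ± 0.29, adjusted p = 0.00032). Car2 averaged 2.48 and 49.9 CPM in OPC (3.60 ± 1.96, adjusted p = 0.226), which was not called. Ptgds rose in inhibitory neurons from 15.1 to 68.8 CPM (2.33 ± 0.64, adjusted p = 0.041), a level at 0.320% of that in Oligo, and the part of free RNA in it was not tested.

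Some members were lower at P60 in a class where the P21 cells carried oligodendrocyte transcripts. In Astro, 15 of the 16 myelin genes tested were lower at P60 with a median log2 difference of -4.42, against a median over all genes of 0.00, and in microglia 12 of 12 were, with a median of -4.30. Beside this, Trf fell in Astro from 449 to 34.1 CPM (log2 difference -3.55 ± 0.27, adjusted p = 1.35e-05 by edgeR) and Apod from 79.8 to 8.72 CPM (-2.63 ± 0.50, adjusted p = 0.011). In the P21 Astro cells whose class and cluster name agreed, Trf stood at 8.33 CPM and its difference reversed to 1.49 (adjusted p = 0.217), and Apod averaged 2.02 CPM (0 to 6.06). Against it stood 7.37 CPM (0 to 22.1) in the agreeing cells of all 6 saline libraries, including the one with 8 Astro cells that the comparisons leave out. These ranges overlapped, and the lower Apod at P60 was not seen in these cells. In microglia, Car2 fell from 117 to 21.6 CPM (-2.15 ± 0.55, adjusted p = 0.011) and S100b, with libraries that overlapped between ages, from 82.2 to 17.8 CPM (-2.11 ± 0.66, adjusted p = 0.025). With the agreeing cells these differences were -0.69 and -2.02, and neither passed. Car2 in microglia was also lost without P21 replicate 1 (-1.92).

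Trf rose in microglia from 575 to 1441 CPM (log2 difference 1.72 ± 0.38, adjusted p = 0.0049 by edgeR), and with the agreeing P21 cells, at 981 CPM, the difference was 0.70 and did not pass. Car2 fell in Endo from 237 to 129 CPM (-0.97 ± 0.14, adjusted p = 0.00034). In Astro, Car2 averaged 778 and 1282 CPM (0.89 ± 0.25, adjusted p = 0.046), a call lost in 7 of its 11 alternatives, among them the agreeing cells (0.29) and leaving out any P21 library, saline maintenance replicate 1 or either saline 48 h library. Among members tested, 5 of 6 were called in Astro beside 7.63% of all genes, 3 of 4 in microglia beside 42.4%, 3 of 7 in Endo beside 13.3%, 1 of 3 in OPC beside 20.4%, 1 of 6 in excitatory neurons beside 18.1% and 1 of 3 in inhibitory neurons beside 14.1%. With DESeq2 or its size factors, 1 further call of a member appeared in OPC and 1 in excitatory neurons.

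**Figure D3:**
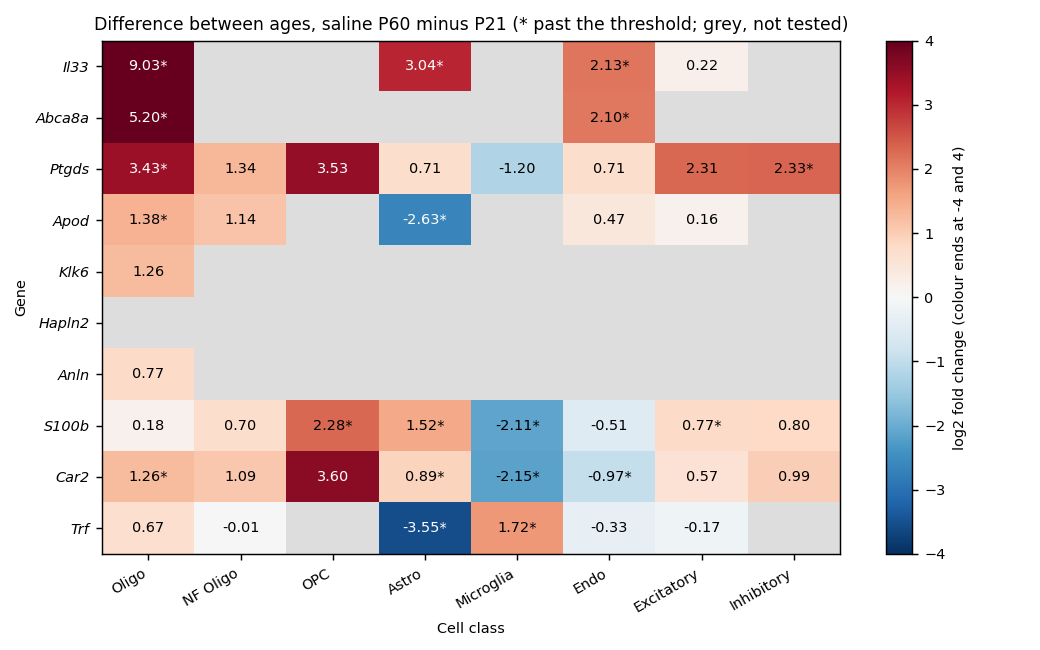
Log2 fold change between ages (saline P60 minus P21) of each gene in each class, from edgeR. Red is higher and blue lower at P60, a star marks an adjusted p below 0.05 with a change above 1.5-fold, and grey marks a gene that was not tested. Il33 is higher in Oligo (9.03) and Astro (3.04), and Trf is lower in Astro (-3.55) and higher in microglia (1.72).

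Genes of the same families and pathways were taken from lists that were also drawn up with earlier results known. Of 18 myelin and mature oligodendrocyte genes, 18 were tested in Oligo, 1 was higher and 9 were lower at P60, beside 16.5% of all genes called in either direction, with a median log2 difference of -0.58 against -0.01 over all genes. Among those that fell were Ugt8a (-2.19 ± 0.18, SE) and Fa2h (-1.28 ± 0.14), which make the galactolipids of myelin. Against the same 16.5%, 2 of 4 tested S100 genes rose, S100a1 (1.80 ± 0.19) and S100a13 (1.02 ± 0.24). The early genes Gpr17 (-1.71 ± 0.50) and Enpp6 (-0.91 ± 0.25) fell, 2 of the 6 newly formed oligodendrocyte genes tested. Pla2g4a, which frees arachidonic acid upstream of prostaglandins, was the single tested gene of the prostaglandin D2 pathway and fell (-1.34 ± 0.28). Of 5 septins and anillin partners tested, Sept2 fell (-0.75 ± 0.18). None of 3 tested genes of IL-33 signalling, 4 of iron handling, 2 ABCA transporters, 2 carbonic anhydrases and 1 IL-1 family ligand was called, and no kallikrein or link protein passed the filter.

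The receptor of Il33 and several other enzymes of the Ptgds pathway had their highest levels in microglia. Il1rl1, the IL-33 receptor, averaged 4.09 CPM in saline microglia and no more than 0.01 CPM elsewhere, including 0 in Oligo. Saline microglia held 202246 to 494868 UMIs per library, so this level rests on few UMIs. In NF Oligo, with 58819 to 326858 UMIs per library, a like level could go unseen. The co-receptor Il1rap averaged 106 CPM in Oligo, 87.2 in NF Oligo and 80.6 in OPC. Ptgs1, the cyclooxygenase that makes the precursor of prostaglandin D2, averaged 548 CPM in microglia and 0.78 in Oligo, and Hpgds, the other synthase, 501 CPM in microglia and 0.92 in Oligo. Pla2g4a, a phospholipase that releases arachidonic acid, averaged 50.7 CPM in microglia, 39.7 in NF Oligo, 34.5 in Endo and 28.5 in Oligo, while Ptgs2, the second cyclooxygenase, was highest in Endo, at 12.4 CPM against 3.60 in microglia. In NF Oligo, the S100 genes S100a6 (1.16 ± 0.27, SE), S100a16 (0.73 ± 0.17) and S100a1 (0.60 ± 0.17) rose with age, 3 of 4 tested beside 5.98% of all genes. There Cryab rose (2.01 ± 0.20) and Mbp (-0.92 ± 0.21) and Ugt8a (-0.79 ± 0.22) fell, out of 16 myelin genes tested.

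Likeness to Il33 was measured by Pearson correlation, as a description. Over 16 means of class and age and 4941 genes, the nearest were Paqr6 (r = 0.876), Gpt (0.822), Mpst (0.795), Tkt (0.784), Cept1 (0.775), Csrp1 (0.770), Serpinb1a (0.753) and Bckdha (0.751). Over the 15 libraries within Oligo the nearest were Abca8a (r = 0.987), Fbxo7 (0.978), Pex5l (0.969), Ckb (0.967), Rsu1 (0.966), Serpinb1a and Hsd17b11 (0.963 each) and Glul (0.961). These libraries fall into 2 ages, so the second set mainly orders genes by the same step. Paqr6 went from 1.79 to 47.0 CPM in Oligo and Serpinb1a from 28.5 to 394 CPM.

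Mature oligodendrocytes were not uniform in these genes. In the 12 P60 libraries, 287 Oligo cells held a Klk6 UMI and 1291 did not, with 7 to 60 and 32 to 184 cells per library. This split was chosen after the data were seen. The median depth of the cells with Klk6 was above that of the others in 8 of the 12 libraries. S100b averaged 1054 CPM in cells with Klk6 and 99.6 CPM in the others, with library ranges of 306 to 1922 and 50.0 to 220 that did not overlap (log2 difference 3.24 ± 0.10, SE, adjusted p = 3.6e-35 by edgeR with the library as a block). Anln rose from 125 to 349 CPM (1.49 ± 0.11), Apod from 2608 to 6751 CPM (1.31 ± 0.06) and Trf from 7179 to 14761 CPM (1.00 ± 0.06).

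Il33 and Ptgds went the opposite way. Il33 averaged 617 CPM in cells with Klk6 (266 to 1018) and 1266 CPM in cells without (756 to 2096), a log2 difference of -1.09 ± 0.19 (SE, adjusted p = 0.00169 by edgeR). Ptgds averaged 5757 CPM (668 to 11054) and 24376 CPM (16766 to 37913), with no overlap (-2.31 ± 0.31, adjusted p = 0.000159). Car2 was higher by 0.35 ± 0.06, which is under 1.5-fold (5329 and 7122 CPM, adjusted p = 6.46e-06). Each of these 7 genes differed in the stated direction in 12 of 12 libraries. Of the 7 members tested, 4 were called higher and 2 lower, beside 7.59% of 2199 genes. Abca8a and Hapln2 were too low to be tested, with Abca8a at 19.3 and 52.2 CPM (lower in 12 of 12) and Hapln2 at 44.5 and 15.1 CPM (higher in 10 of 12).

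Other oligodendrocyte genes divided along the same split. Enpp6 (2.51 ± 0.14, SE), an early choline phosphodiesterase, and Gjb1 (0.93), a gap junction protein, were higher in cells with Klk6, as were S100a6 (1.27), S100a16 (0.69) and Sept8 (0.77). Opalin (-1.93 ± 0.20), Tspan2 (-1.39) and Mal (-1.0), membrane proteins of oligodendrocytes, were lower. At P21 the same split gave 70 and 464 cells, but 59 of the 70 came from P21 replicate 1, with 5 and 6 in the others, and the means weight the 3 libraries equally. S100b (819 and 107 CPM), Anln (214 and 72.1), Apod (2054 and 999) and Trf (9028 and 4994) had the higher mean in cells with Klk6, though for Apod the library ranges of 859 to 3718 and 732 to 1441 CPM overlapped, and Ptgds averaged 304 and 2157 CPM. Il33 had 0 and 6 UMIs, too few for an order. The 13 deposited clusters, as a description, followed this division only in part. Oligo_2 (131 cells) had Klk6 at 850 CPM, S100b at 947, Ptgds at 6451 and Il33 at 619, and Oligo_11 (100 cells) had Klk6 at 0, Ptgds at 34776 and Il33 at 1759. Oligo_1 (172 cells) went against it, with Klk6 at 1.11 CPM and yet the lowest Il33 of the 13, at 417 CPM. Oligo_3 (80 cells) had Klk6 at 475 CPM beside Il33 at 1100.

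**Figure D4:**
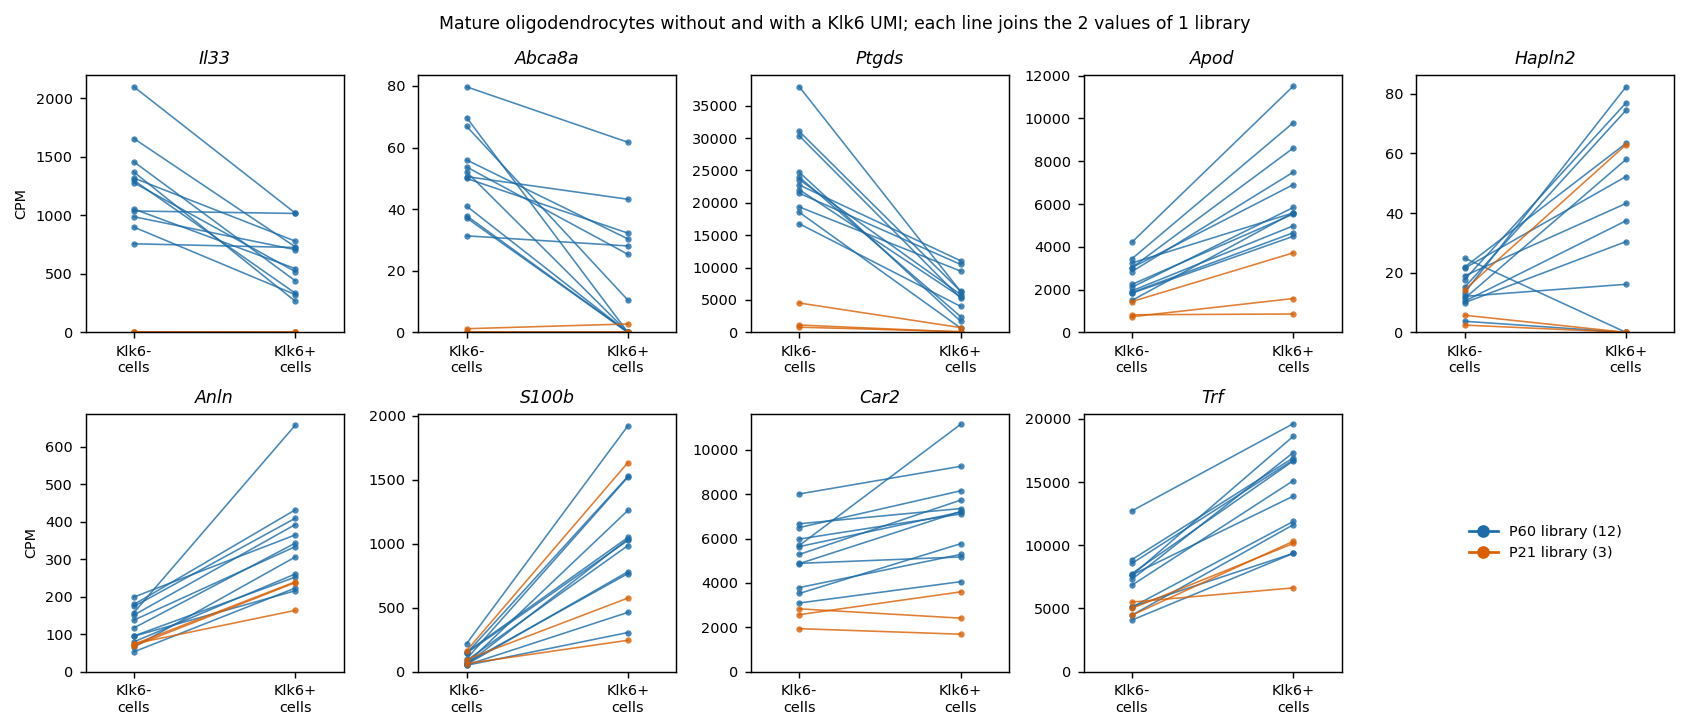
CPM of 9 genes in mature oligodendrocytes without (left) and with (right) a Klk6 UMI, where each line joins both values of a library, blue for the 12 P60 and orange for the 3 P21 libraries. S100b, Anln, Apod and Trf rise and Il33 and Ptgds fall along all 12 blue lines.

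The comparison of cocaine with saline asked whether self-administration moved these genes in oligodendrocytes at each time. None of the 10 was called at any time, and few of the 6438 genes tested were, at 0% during maintenance, 0% at 48 h, 0.264% at 15 days and 0.0466% for the average over times. At an unadjusted p below 0.05 there were 208 genes in maintenance and 361 at 48 h, and DESeq2 called 4 genes at each of these times. Il33 averaged 1045 ± 183 CPM in the cocaine libraries and 1234 ± 364 CPM in the saline libraries (SD, n = 6 each), which overlapped. Its log2 differences were -0.32 ± 0.18 (SE) in maintenance, -0.33 ± 0.18 at 48 h and 0.02 ± 0.17 at 15 days, and the average of -0.21 ± 0.10 had an unadjusted p of 0.049 and an adjusted p of 0.849 by edgeR.

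Car2 had the smallest p among the members. In the saline and cocaine libraries it averaged 6158 ± 1505 and 5093 ± 1325 CPM (SD, n = 6 each), with log2 differences of 0.00 ± 0.16 (SE), -0.46 ± 0.16 and -0.37 ± 0.16 at the 3 times and an average of -0.28 ± 0.09 (unadjusted p = 0.0046, adjusted p = 0.594 by edgeR). Some members had wide errors. Klk6 differed by 0.35 ± 0.64, -0.14 ± 0.70 and -1.36 ± 0.69, and S100b by 0.64 ± 0.43, -0.22 ± 0.49 and -1.07 ± 0.48. S100b passed at 15 days with no filter on low counts (-1.09), and Klk6 passed there without cocaine 48 h replicate 1 (-1.38) or replicate 2 (-1.35). Hapln2 differed by -1.50 ± 0.71 at 48 h. With these errors a 1.5-fold change in Klk6, S100b or Hapln2 was not detectable. Whether such a change was detectable in the other members was not tested, so their lack of a call is not read as no effect.

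The change in the cocaine effect from maintenance to 48 h and to 15 days was called for 0 of 10 members, beside 0% of all genes in both, with 273 and 267 genes at an unadjusted p below 0.05 and 5 and 4 genes called by DESeq2. With no filter, the change of S100b from maintenance to 15 days passed (-1.78). In NF Oligo 0 of 5 tested members were called by edgeR or DESeq2, beside 0.0276% of 3617 genes in maintenance, 0% at 48 h, 0.0553% at 15 days and 0% on average, and Car2 had a difference of -1.49 ± 0.42 (SE) at 15 days (adjusted p = 0.390). Saline maintenance in NF Oligo was replicate 1 alone, with 11 cells, so the spread within that group could not be measured. Nothing is read from the counts for maintenance and for the average in NF Oligo, which rest on that library. Outside the lineage, inhibitory neurons at 15 days had lower Ptgds after cocaine, at 38.0 and 50.9 CPM against 104 and 158 CPM (-1.54 ± 0.26, adjusted p = 0.0037), and lower Trf, at 4.0 and 8.3 against 25.7 and 27.8 CPM (-2.16 ± 0.43, adjusted p = 0.0091), 2 of 5 members tested beside 0.779% of 8605 genes. In the other 35 contrasts of the 6 classes besides Oligo and NF Oligo, OPC included, 0 of 199 tests of a member gave a call by edgeR. The share of all genes called there was 0% to 0.714%, and edgeR was the single tool run. Of the 199 tests, 20 had an unadjusted p below 0.05. In OPC and Astro, saline maintenance was also replicate 1 alone, so a lack of calls in contrasts that use it is not read as no effect. Ptgds and Trf in inhibitory neurons are at low levels relative to Oligo, and the part of free RNA in them was not tested.

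Time since self-administration divided the same cells in another way. With the 4 libraries at 15 days set against the 8 earlier P60 libraries, saline and cocaine together, 6 of 10 members were lower in Oligo and 0 higher, beside 11.7% of all genes. This comparison was added after the data were seen. Trf fell from 10021 to 5587 CPM (log2 difference -0.93 ± 0.13, SE, adjusted p = 0.000135 by edgeR), with every 15-day library below every earlier library. Apod fell from 3932 to 2242 CPM (-0.89 ± 0.23, adjusted p = 0.047), also without overlap. Car2 fell from 6392 to 4093 CPM (-0.73 ± 0.10, adjusted p = 1.9e-06), Anln from 199 to 99.6 CPM (-1.07 ± 0.22, adjusted p = 0.0053) and S100b from 349 to 139 CPM (-1.43 ± 0.29, adjusted p = 0.0155).

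Il33 averaged 1268 ± 267 CPM in the 8 earlier libraries (936 to 1833) and 884 ± 123 CPM in the 4 libraries at 15 days (752 to 1034), which overlapped (log2 difference -0.60 ± 0.11, SE, adjusted p = 0.00023 by edgeR). Its size lay near 1.5-fold, and the call was lost in 8 of 17 alternatives over a range of -0.71 to -0.37, 5 of them by leaving out a library, namely saline maintenance replicate 2 (-0.58), cocaine maintenance replicate 2 (-0.55), saline 48 h replicate 1 (-0.50), cocaine 15-day replicate 1 (-0.50) and saline 15-day replicate 2 (-0.54). The call of Apod was lost in 10 of 17, among them without either saline maintenance library, either saline 48 h library or any of the 4 libraries at 15 days, and that of Car2 without cells that held a Snap25 UMI (-0.55). That of S100b was lost without cocaine 15-day replicate 2 (-1.30) or saline 15-day replicate 2 (-1.31). Klk6 (-1.19 ± 0.42), Abca8a (-0.55 ± 0.22), Hapln2 (-0.40 ± 0.33) and Ptgds (-0.19 ± 0.24) were not called. Klk6 passed without either cocaine 48 h library, and Abca8a without cocaine maintenance replicate 1 (-0.67) or saline 48 h replicate 2 (-0.61).

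The libraries at 15 days were also deeper. By the protocol their mice were taken later after self-administration began, though the labels give all P60 libraries the same 8 to 10 weeks. Time, age and library set therefore cannot be told apart. The share of cells with a UMI of Snap25, a neuronal gene, differed with time too, and in Oligo it was 48.8% to 59.9% in the 4 libraries at 15 days and 7.32% to 35.0% in the 8 earlier ones. It was 50.6% to 69.8% and 13.1% to 29.9% in microglia, 43.7% to 59.7% and 11.6% to 25.3% in Endo, 48.9% to 62.5% and 10.5% to 47.6% in NF Oligo, and 55.7% to 77.8% and 35.3% to 45.8% in OPC, without overlap in any of these classes. With the cells that held a Snap25 UMI left out of Oligo, Trf (-0.77), Anln (-0.90) and S100b (-1.60) were still called, and Il33 (-0.37), Apod (-0.70) and Car2 (-0.55) were not. The share of Oligo cells with a Klk6 UMI was 10.4% to 23.1% at 15 days and 9.20% to 31.7% earlier, with medians of 13.2% and 20%, and its part in the lower S100b, Apod, Anln and Trf was not tested. Several members went up at 15 days in other classes: Ptgds in microglia (1.68), Endo (2.01) and inhibitory neurons (1.10), S100b in the same classes (1.38, 1.61 and 2.51), Apod in excitatory (1.06) and inhibitory neurons (1.90), and Car2 in NF Oligo (3.36, from 20.4 to 117 CPM), microglia (1.95), OPC (1.47) and excitatory neurons (0.74). Trf in microglia (-0.89), Car2 in Astro (-0.61) and S100b in OPC (-0.67) went down. Without the cells that held a Snap25 UMI, which leaves fewer cells, Ptgds (2.21) and S100b (1.57) in Endo were still called. None of the 4 members in microglia was (Ptgds 0.33, S100b 1.53, Car2 2.28 and Trf -0.43), nor Car2 (1.92) and S100b (-0.31) in OPC or Car2 in Astro (-0.14), while Apod in Astro, at 2.75 before and not called, was called (3.68). In NF Oligo too few libraries kept 10 cells for this comparison. The members called were 1 of 5 in NF Oligo beside 1.66% of all genes, 1 of 6 in Astro beside 20.7%, 4 of 4 in microglia beside 29.6%, 2 of 7 in Endo beside 11%, 2 of 7 in excitatory neurons beside 3.17%, 3 of 5 in inhibitory neurons beside 2.81% and 2 of 5 in OPC beside 12.9%.

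Among the lists, Pla2g4a (-0.95), Ermn (-0.71), Gjb1 (-0.59), S100a13 (-0.74) and Enpp6 (-0.92) were lower in Oligo at 15 days. Car10 (2.69), Car11 (1.01), S100a10 (3.12), Ncan (1.57) and Gpr17 (2.24) were higher, beside the higher share of Oligo cells with a Snap25 UMI at 15 days. Without those cells Enpp6 (-0.78), S100a13 (-0.61) and Gpr17 (2.87) were still called, Pla2g4a (-0.84), Ermn (-0.57), Gjb1 (-0.42) and Car11 (0.41) were not, and Car10, S100a10 and Ncan did not pass the filter on low counts. Of the 18 myelin genes 2 fell, beside 11.7% of all genes called in either direction, with a median log2 difference of -0.09 against 0.01 over all genes. A count so near the share of all genes is not read as a result about the list.

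**Figure D5:**
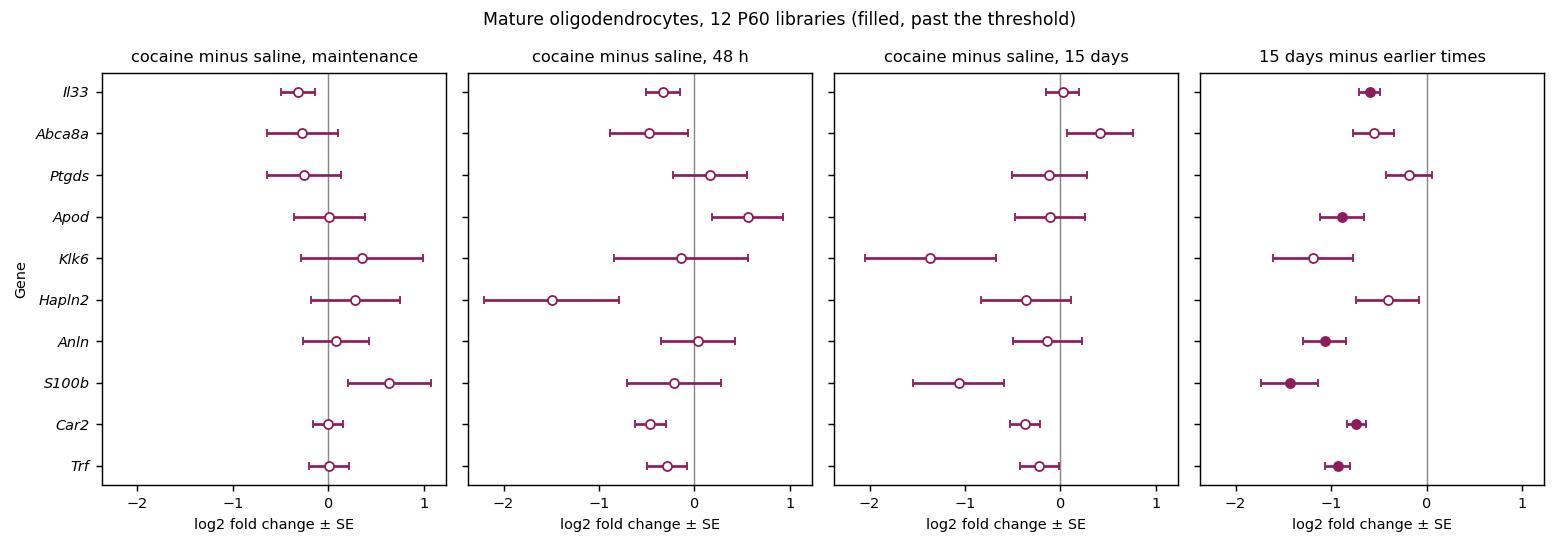
Log2 fold change ± SE of each gene in mature oligodendrocytes of the 12 P60 libraries, for cocaine minus saline at 3 times and for 15 days minus the earlier times, with filled points past the threshold. No point is filled in the 3 cocaine panels, and 6 are filled on the lower side in the time panel (Il33, Apod, Anln, S100b, Car2 and Trf).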

How the data were processed

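Single cells of the PFC were captured on the 10X Chromium platform. The authors aligned the reads to mm9 and counted UMIs with Cell Ranger, kept cells by their numbers of genes and mitochondrial share, and named classes and clusters with Seurat. The deposited values are raw UMI counts per gene and cell, without normalization, and the deposited cell table gives the class and cluster of each retained cell, with a mitochondrial fraction that the authors computed and that was not used here. The authors removed doublets through their filter on genes per cell and by manual assessment after clustering, and no caller was run here.

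UMIs were summed per class and library in python 3.11.15 (pandas 2.3.3, numpy 2.4.6 and scipy 1.17.1), and libraries with fewer than 10 cells of a class were left out. CPM and tests did not include 13 mitochondrial genes and 142 genes of ribosomal proteins, and 304 rows that shared 149 symbols were kept as listed. In R 4.3.3, edgeR 4.0.16 (filterByExpr, TMM, robust quasi-likelihood test, limma 3.58.1) compared 3 P21 with 6 saline P60 libraries, with 5 saline libraries for NF Oligo and Astro and 2 P21 with 5 saline for OPC. Cocaine and time were contrasts of 6 group means over 12 libraries. In NF Oligo, OPC and Astro, saline maintenance replicate 2 was left out, with 0, 3 and 8 cells. Replicate 1 alone then stood for saline maintenance in these classes. P-values measure the spread between libraries of pooled mice. If P21 libraries share mice, their spread is partly technical, and the 3 libraries are fewer than 3 independent replicates. DESeq2 1.42.0, DESeq2 size factors, no filter, each library left out, no cells with a Snap25 UMI, and a minimum of 30 cells were alternatives, and the scripts were tested on simulated data. The contrast of time, the cocaine contrasts in other classes, the split by Klk6, the fits with agreeing P21 cells and the libraries left out in Astro, in microglia and from the bounds against 0 were added after the data were seen. The genes, lists and tests were chosen with earlier results of these data known. Genes named beyond the members came from the lists, or were the 8 nearest to Il33 by correlation. The ends of the members' transcripts were compared with whole protein-coding transcripts by blastn 2.17.0. Intervals (95%) and the floor of 3 UMIs cover counting error only.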

Additional observations from a re-analysis of the deposited data

Results flagged for a closer look

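Of 88 groups of 4 to 10 libraries examined, 7 had a library far from the others, where chance gives about 1 in 20. Il33 in Astro was at 307 CPM in saline 48 h replicate 1 against 121 to 152 in the other saline libraries, and the age difference of Il33 in Astro without it was 2.77 and still passed. Ptgds accounted for 5 of the 7. It stood at 28722 CPM in Oligo of cocaine 48 h replicate 2 against 16908 to 19988 in the other cocaine libraries, and at 662 CPM in OPC of saline 15-day replicate 2 against 111 to 203. It also stood at 753 CPM in Astro of cocaine 15-day replicate 1 against 32.5 to 65.6, at 136 CPM in microglia of the same library against 12.3 to 53.8, and at 1094 CPM in Endo of cocaine 15-day replicate 2 against 76.4 to 439. Apod in Astro of cocaine 15-day replicate 1 was at 73.5 CPM against 3.74 to 27.8. Only members with an age test in a class, and all members in Oligo, were examined, which left out Apod in OPC. There Apod held 1640 UMIs in 417 cells of the cocaine libraries and 28 UMIs in 351 cells of the saline libraries. These were 11.7% and 0.257% of its UMIs in those libraries. Their division among libraries is not given here, and no cocaine contrast in OPC called a member.

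Some genes moved in opposite directions between ages in different classes, and these differences between classes were not tested. Apod was lower at P60 in Astro (-2.63) and higher in Oligo (1.38), but the agreeing Astro cells averaged 2.02 CPM at P21 (0 to 6.06) and 7.37 CPM in all 6 saline libraries (0 to 22.1, the library with 8 Astro cells included), which overlapped and were not tested. Car2 was lower in microglia (-2.15) and Endo (-0.97) and higher in Oligo (1.26) and Astro (0.89), and in OPC its difference of 3.60 was not called. Trf was lower in Astro (-3.55) and higher in microglia (1.72), with the values of the agreeing P21 cells given beside those results.

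Barcodes that the authors did not retain as cells also carried Il33. These held 110 CPM on average in the P60 libraries (60.6 to 182, 4905 UMIs) and 2.77 CPM in the P21 libraries (1.72 to 4.74, 13 UMIs), so the order of the ages was that of the retained Oligo cells.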

How the results depend on the processing

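For the tested differences of the members, 931 of the values with a library left out and 535 under other settings kept their direction and side of the threshold, 28 and 12 lost it, 11 and 6 gained it, and 65 and 13 changed the sign of a difference that was not called. Most of the values that kept it came from cocaine contrasts in Oligo and NF Oligo, where no member was called and no call could be lost. Of the calls lost, 21 were for time in Oligo, 12 for age in Astro, 4 for age in microglia and 3 for age in Oligo. Trf in Astro reversed with the agreeing P21 cells (1.49 against -3.55), while Apod in Astro could not be tested with them, and those cells cut the calls of all genes from 486 to 49 in Astro, from 1897 to 29 in microglia and from 284 to 104 in NF Oligo, with fewer P21 cells summed. Age calls in NF Oligo were 628 with no filter and in OPC 654 by DESeq2 against 1000. For cocaine in Oligo, calls in maintenance were 4 by DESeq2, 4 with no filter and 2 without cells with a Snap25 UMI against 0, at 48 h 4 by DESeq2 and 8 with no filter against 0, at 15 days 1 and 65 against 17, and on average 1 and 15 against 3. The changes from maintenance to 48 h and to 15 days gave 5 and 4 by DESeq2, 4 and 4 with no filter, and 1 each without cells with a Snap25 UMI, against 0. Time in Oligo gave 471 by DESeq2 and 292 without cells with a Snap25 UMI against 751, and in NF Oligo 16 by DESeq2 against 60. With a library left out, age calls ranged from 657 to 908 in Oligo, 141 to 370 in NF Oligo (lowest without P21 replicate 2, and 169 without saline 15-day replicate 1), 176 to 601 in Astro (lowest without P21 replicate 3) and 1205 to 2318 in microglia (lowest without P21 replicate 3). Those of cocaine ranged from 0 to 4 in maintenance, 0 to 7 at 48 h, 4 to 111 at 15 days (highest without saline 15-day replicate 2), 3 to 30 on average, and 0 to 6 and 0 to 7 for the changes from maintenance to 48 h and to 15 days, and those of time in Oligo from 647 to 891. The share of saline Oligo cells with an Il33 UMI was 61.1% at 1000 UMIs against 73.0% at 2000. The cause of these shifts was not tested. No paired analysis was possible because the labels give the groups compared no shared replicate numbers, and those used here follow the order of the samples. Members that did not pass the filter on low counts, such as Hapln2 for age in Oligo, have values but no test.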
